A study of Rattus norvegicus with 24 samples.

Results

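Hippocampal RNA from female rats that had lost their ovaries and later received estradiol was compared with hippocampal RNA from rats that kept their ovaries. The comparison used 12 of the 24 sequenced libraries of the study, chosen by their group labels. Treatment rats (labelled OVX_E2_Treatment, n = 5, replicates 1, 2, 5, 6 and 7) were 6 months old at ovary removal, then had vehicle for 3 weeks and 17β-estradiol (E2) for 2 weeks. SHAM rats (n = 7, replicates 1 to 7) were 6 months old, kept their ovaries and had vehicle for 7 weeks. The stated treatment weeks therefore differ between the groups, as do surgery and hormone, and these cannot be told apart in this comparison. Further groups of ovariectomised rats, also labelled as 6 months old, are used only beside it. They are Prevention (E2 for 5 weeks, n = 5) and OVX (vehicle for 7 weeks, n = 7). The labels give no dose, no time of day at tissue collection and no estrous stage of the SHAM rats. Each library is labelled as a separate sample, and whether each came from its own animal is not stated. The p-values therefore rest on the spread between samples within groups, estimated over all 24 libraries.

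Estradiol acts through the nuclear receptors Esr1 and Esr2 and a membrane receptor, and ovary removal takes away its main source. Corticosterone, the main glucocorticoid of the rat, acts in the hippocampus through the glucocorticoid and mineralocorticoid receptors, which bind DNA and raise the transcription of genes such as Pdk4, Sgk1 and Per1. Several of these genes also respond to other stimuli, including fasting, neuronal activity and the clock. Cholesterol synthesis is driven by the transcription factor SREBP2, which is held back by Insig1 when membrane sterol is high.

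Each library held 35.6 to 37.4 M (mega) normalised counts, and estimated reads ran from 32.0 to 47.5 M in Treatment libraries and from 26.5 to 40.2 M in SHAM libraries. The tissue label was checked against markers. Summed CA1 pyramidal markers ran from 34129 to 61702 normalised counts in Treatment libraries and from 32634 to 61495 in SHAM libraries, and summed dentate granule markers from 14914 to 19140 in Treatment libraries and from 14167 to 21109 in SHAM libraries. Libraries stood apart in 3 ways. The feature LOC257642 was at 14.3 to 19.5 on the log2 scale in Treatment libraries, above 16 in replicates 1 and 2 only, and at 14.3 to 15.1 in SHAM libraries. Markers of thalamus and habenula had a mean log2 level of 8.72 in Treatment replicate 6 and 8.72 in SHAM replicate 5, and at most 7.45 in the other 10 libraries. Summed choroid plexus markers ran from 1462 to 89576 normalised counts in Treatment libraries and from 1346 to 174380 in SHAM libraries. No marker gene of these lists was at 0 in all 12 libraries. Changes are therefore also given for Treatment replicates 5, 6 and 7 against the SHAM libraries, which share the low LOC257642 level. The part of these differences in the results was not tested beyond the values given.

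Pdk4 was the 1 gene called as changed. Of 16119 genes tested it rose and 0 genes fell at a limma adjusted p of at most 0.05 (0.0062% of genes tested), while 531 genes were higher (3.29%) and 452 lower (2.8%) at an unadjusted p under 0.05. Pdk4 encodes pyruvate dehydrogenase kinase 4, which switches off the entry of pyruvate into the citric acid cycle and is known to be induced by glucocorticoids and fasting. It had 369, 294, 365, 508 and 614 normalised counts in Treatment libraries, against 73.4 to 177 with a median of 128 in SHAM libraries. Every Treatment library lay above every SHAM library, and the lowest Treatment value was that of replicate 2. The means were 430.0 ± 129 in Treatment libraries and 129 ± 33.7 in SHAM libraries (SD, n = 5 and 7). The log2 change, Treatment minus SHAM on log2(normalised count + 1), was 1.72 with SE 0.23, a 3.3-fold difference (adjusted p = 0.00238). In Treatment replicates 5, 6 and 7 alone the change was 1.94 with SE 0.25 (adjusted p = 0.00715).

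**Figure D1:**
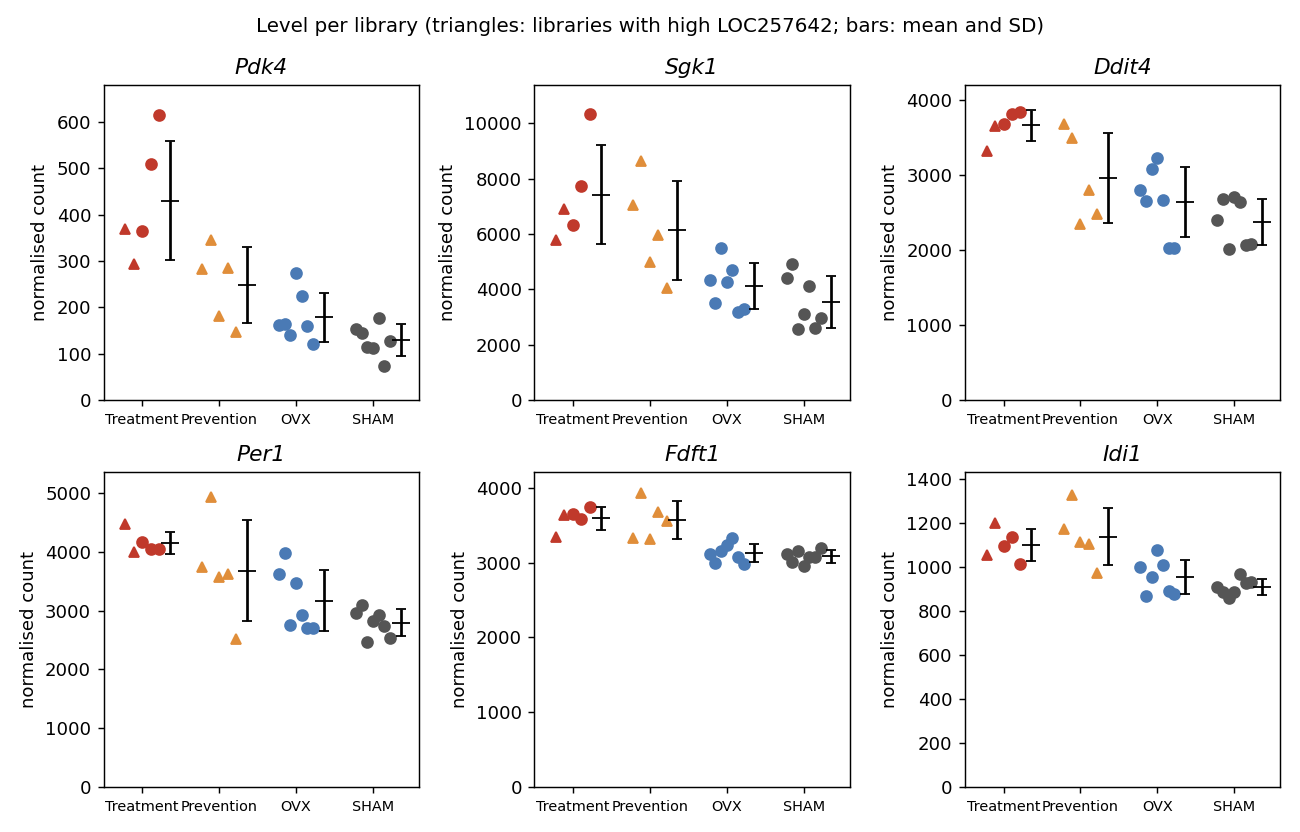
Normalised counts of 6 genes in each library, by group. Points are libraries, triangles those with high LOC257642, and the bars give the mean and SD. The 6 genes shown are among the 0.292% of genes tested in which every Treatment library lies above every SHAM library. Prevention and OVX libraries spread between and across these groups.

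The other genes of the pyruvate dehydrogenase list did not pass the test. Of its 13 tested members Pdk4 alone had an unadjusted p under 0.05, where 3.29% of all genes were higher and 2.8% lower. The median change of the list was 0.061, beside 0.0037 over all genes tested. The other kinases share the substrate of Pdk4. Pdk1 averaged 896 ± 110.1 normalised counts in Treatment libraries and 847 ± 58.9 in SHAM libraries, Pdk2 3927 ± 327 in Treatment libraries and 4054 ± 173 in SHAM libraries, and Pdk3 1136 ± 63.9 in Treatment libraries and 1101 ± 69.7 in SHAM libraries (SD, n = 5 and 7). Their log2 changes were 0.08, -0.05 and 0.05. Pdha1, a catalytic subunit of the dehydrogenase itself, had a change of 0.06 with SE 0.06, which did not pass (adjusted p = 0.905).

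The promoter of Pdk4 is shown because this gene carries the called difference, beside that of Sult1a1, a phenol sulfotransferase gene of the glucocorticoid list described below, and that of Insig1 of the cholesterol list. Each holds the 250 bases before the RefSeq start on build GRCr8, written 5′ to 3′ on the gene's own strand. Capitals mark a match to the glucocorticoid receptor hexamer AGAACA in Sult1a1, first base at position -89 from the start, and to the E-box CACGTG in Insig1, first base at position -79.
Pdk4, chr4:34568330-34568579, minus strand: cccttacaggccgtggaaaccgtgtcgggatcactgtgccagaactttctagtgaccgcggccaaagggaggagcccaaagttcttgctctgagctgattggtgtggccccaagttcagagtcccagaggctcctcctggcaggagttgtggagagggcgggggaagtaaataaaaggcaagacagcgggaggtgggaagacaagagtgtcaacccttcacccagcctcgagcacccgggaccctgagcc
Sult1a1, chr1:190706113-190706362, minus strand: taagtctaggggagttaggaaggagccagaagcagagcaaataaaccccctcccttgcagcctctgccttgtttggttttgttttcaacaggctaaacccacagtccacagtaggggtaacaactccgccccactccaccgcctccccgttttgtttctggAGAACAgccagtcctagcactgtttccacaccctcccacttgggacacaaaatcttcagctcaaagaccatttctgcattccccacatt
Insig1, chr4:8057770-8058019, minus strand: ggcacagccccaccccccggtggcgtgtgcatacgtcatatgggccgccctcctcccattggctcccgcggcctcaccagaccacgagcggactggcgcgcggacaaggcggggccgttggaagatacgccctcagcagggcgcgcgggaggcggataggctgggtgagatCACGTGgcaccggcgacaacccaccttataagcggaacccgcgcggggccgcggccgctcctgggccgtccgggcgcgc

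These letters were searched on both strands in 33469 RefSeq promoter windows of this length. AGAACA, which also forms the first part of the glucocorticoid receptor palindrome, was in 17.5% of all windows and in 2 of the 26 windows (7.69%) of 18 matched glucocorticoid-list genes, those of Plin4 and Sult1a1. The full palindrome was in 0.012% of all windows and in 0 of these 26, and no searched motif was in the Pdk4 window. The cAMP response element TGACGTCA was in 1.59% of all windows and in 1 of the 26 (3.85%), that of Dusp1. CACGTG was in 5.59% of all windows, in 2 of the 26 glucocorticoid-list windows (7.69%) and in 4 of the 23 windows (17.4%) of 21 matched cholesterol-list genes. The sterol regulatory element TCACCCCAC was in 0.409% of all windows and in 0 of the 23, and the palindromic estrogen response element in 0.0239% of all windows and in 0 of both lists. A match is a description of these letters, and their absence says nothing of sites elsewhere.

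Of 20 glucocorticoid-responsive genes, all tested, 1 passed (Pdk4) and 18 had a change above 0, where 51.6% of all genes did. At an unadjusted p under 0.05, 9 were higher in Treatment libraries and 0 lower, beside 3.29% and 2.8% of all genes tested. Their median change was 0.23, and 0.38 in Treatment replicates 5, 6 and 7 against SHAM. In 4 of them, Pdk4, Sgk1, Ddit4 and Per1, every Treatment library lay above every SHAM library, as it did for 0.292% of all genes. The mean log2 level of the 20 genes ran from 9.85 to 10.1 in Treatment libraries and from 9.36 to 9.74 in SHAM libraries, without overlap. Since the list was drawn up with earlier results of these data known, these counts describe it and are no test of it.

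Sgk1, a kinase of ion transport that corticosteroids induce, had 5774, 6892, 6344, 7745 and 10355 normalised counts in Treatment libraries, against 2553 to 4913 with a median of 3112 in SHAM libraries. The groups did not overlap, and Treatment replicate 7 was highest for Sgk1 as for Pdk4. Its log2 change of 1.08 (SE 0.19, 2.12-fold) did not pass the threshold (adjusted p = 0.0637). It was 1.22 with SE 0.21 in Treatment replicates 5, 6 and 7 (adjusted p = 0.0709). It passed when any 1 of SHAM replicates 1, 2 and 5 or Treatment replicate 1 was left out (adjusted p from 0.0217 to 0.0486). Sgk1 passed in 7 of 28 alternatives, with a limma adjusted p of up to 0.296.

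Ddit4, a stress-induced inhibitor of the growth kinase mTOR, had 3315, 3653, 3672, 3808 and 3837 normalised counts in Treatment libraries, against 2014 to 2698 with a median of 2399 in SHAM libraries. Treatment libraries lay close together, with an SD of 208 in Treatment libraries and 310.0 in SHAM libraries. The change was 0.64 with SE 0.12, 1.55-fold (adjusted p = 0.107). Ddit4 passed in 2 of 28 alternatives, 1 of them the fit of the Treatment and SHAM libraries alone (limma adjusted p = 0.0094). Errfi1, an inhibitor of the EGF receptor, had 1645, 1907, 1921, 1987 and 2149 normalised counts in Treatment libraries, against 1311 to 1673 with a median of 1575 in SHAM libraries. Here Treatment replicate 1 lay within the SHAM range, and without it the change of 0.39 passed (adjusted p = 0.0348), beside 0.33 with all libraries (adjusted p = 0.126). Errfi1 passed in 2 of 28 alternatives, with a limma adjusted p of up to 0.356.

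Nfkbia encodes IκBα, which holds the inflammatory factor NF-κB in the cytoplasm. It had 934, 1257, 1401, 1149 and 1531 normalised counts in Treatment libraries, against 547 to 951 with a median of 703 in SHAM libraries, so that only Treatment replicate 1 lay within the SHAM range. The change was 0.76 with SE 0.16 (adjusted p = 0.126). Sult1a1 had 575, 603, 595, 654 and 596 normalised counts in Treatment libraries, against 374 to 612 with a median of 409.8 in SHAM libraries. The SHAM value of 612 was that of replicate 5, the SHAM library with a high thalamus score. With it the change was 0.47 (adjusted p = 0.135), and without it 0.55 (adjusted p = 0.0114). With Treatment replicate 6, the other library with a high thalamus score, left out as well, it was 0.52 (adjusted p = 0.0779). Sult1a1 passed in 2 of 28 alternatives, with a limma adjusted p of up to 0.589.

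The remaining glucocorticoid-list genes were less separated. Tsc22d3, which encodes the leucine zipper protein GILZ, averaged 3443 ± 371 normalised counts in Treatment libraries and 2488 ± 521 in SHAM libraries (log2 change 0.49, adjusted p = 0.387). Klf9, a transcription factor of neuronal maturation, averaged 5176 ± 382 in Treatment libraries and 4664 ± 121 in SHAM libraries (0.15, adjusted p = 0.72). Fkbp5, a chaperone that damps the glucocorticoid receptor and is itself a target of it, had a lower mean in Treatment libraries, with 2829, 3302, 2496, 2705 and 2686 normalised counts in Treatment libraries against 2463 to 3256 with a median of 3081 in SHAM libraries. Its change was -0.05 with SE 0.13 (adjusted p = 0.977), and the groups overlapped throughout. Dusp1 (0.57, adjusted p = 0.84) and the metallothioneins Mt1 (0.22, adjusted p = 0.849) and Mt2A (0.20, adjusted p = 0.829) did not pass. The receptor genes Nr3c1 and Nr3c2 had changes of 0.09 and -0.09, and 0 of the 10 tested corticosteroid receptor and chaperone genes had an unadjusted p under 0.05.

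**Figure D2:**
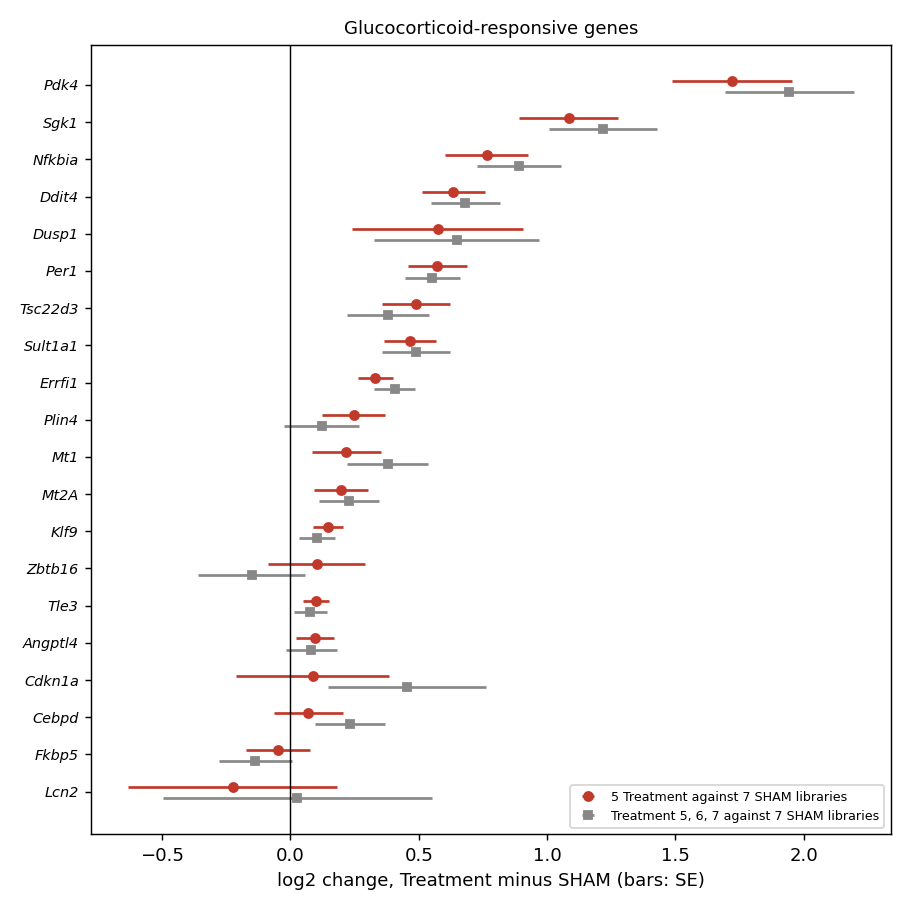
Log2 change of each of the 20 glucocorticoid-responsive genes, Treatment minus SHAM, with its SE. Circles use all 5 Treatment libraries and squares replicates 5, 6 and 7. Pdk4 at 1.72 and Sgk1 at 1.08 stand to the right, and Fkbp5 and Lcn2 lie left of 0 in the fit of all 5.

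Clock genes were mostly higher in Treatment libraries, without a call. The clock is a feedback loop in which Clock and Arntl drive the repressors of the Per and Cry families. Of 18 tested members 17 had a change above 0, with a median of 0.18 (0.14 in replicates 5, 6 and 7), and 5 had an unadjusted p under 0.05 with a higher level, namely Per1, Nr1d2, Per2, Cry1 and Ciart. Over all genes 51.6% had a change above 0 and 3.29% were higher at this p. Per1 had 4471, 4001, 4167, 4050 and 4047 normalised counts in Treatment libraries, against 2471 to 3099 with a median of 2821 in SHAM libraries. The groups did not overlap (0.57, SE 0.12, adjusted p = 0.126), and Per1 belongs to the glucocorticoid list as well. Per1 passed in 1 of 28 alternatives, the fit of the Treatment and SHAM libraries alone (SE 0.057, limma adjusted p = 0.00158). Nr1d2, a nuclear receptor that represses Arntl, averaged 3393 ± 280.3 in Treatment libraries and 2874 ± 359 in SHAM libraries (0.25, adjusted p = 0.62). Arntl averaged 1105 ± 83.5 in Treatment libraries and 1102 ± 86.5 in SHAM libraries, and Nr1d1 3498 ± 262 in Treatment libraries and 3462 ± 274 in SHAM libraries. The time of collection, which sets the level of clock genes, is not in the labels, and its part was not tested.

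Immediate early genes, which neurons transcribe within minutes of firing, were likewise mostly higher in Treatment libraries. Of 30 tested 26 had a change above 0, with a median of 0.17 (0.10 in replicates 5, 6 and 7), and 8 were higher and 0 lower at an unadjusted p under 0.05, beside 51.6% above 0, 3.29% higher and 2.8% lower over all genes. Fos had 649, 593, 664, 615 and 582 normalised counts in Treatment libraries, against 233 to 580.4 with a median of 399.9 in SHAM libraries. The highest SHAM library lay just below the lowest Treatment library, and the spread was wider in SHAM (0.68, SE 0.25, adjusted p = 0.678). Egr2 had 328, 254, 169.9, 112 and 198 normalised counts in Treatment libraries, against 64.6 to 108 with a median of 86.2 in SHAM libraries. Its 2 highest values were those of Treatment replicates 1 and 2, the libraries with high LOC257642, and the change of 1.22 was 0.86 without them (adjusted p = 0.387 and 0.886). Gadd45b, a stress-induced gene linked to DNA demethylation, averaged 607 ± 51.2 in Treatment libraries and 477 ± 72 in SHAM libraries (0.36, adjusted p = 0.307). Arc and Egr1 had changes of 0.59 and 0.57 (adjusted p = 0.569 and 0.562), and Npas4, a factor specific to neuronal activity, had 0.02 (adjusted p = 0.998).

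The cholesterol list held no called change. Of 29 tested members of the cholesterol list (1 further member was below the filter) 20 had a change above 0, where 51.6% of all genes did, and the median was 0.052. At an unadjusted p under 0.05, 8 were higher (among them Fdft1, Idi1, Hmgcs1, Sqle, Insig1, Msmo1 and Cyp51) and 0 lower, beside 3.29% and 2.8% of all genes. In 4 members, among them Fdft1, Idi1 and Hmgcs1, every Treatment library lay above every SHAM library, as it did for 0.292% of all genes.

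Hmgcs1, which acts at the start of the pathway, had 10045 to 11494 in Treatment libraries, against 8975 to 10036 in SHAM libraries (0.19, adjusted p = 0.325). The gap between the groups was narrow for this gene. Idi1, an isomerase of the isoprenoid units, had 1053, 1197, 1095, 1136 and 1014 normalised counts in Treatment libraries, against 856 to 966 with a median of 907 in SHAM libraries (0.27, SE 0.06, adjusted p = 0.231). Its lowest Treatment value, that of replicate 7, lay above the highest SHAM value. Fdft1, squalene synthase, had 3340, 3636, 3652, 3588 and 3746 normalised counts in Treatment libraries, against 2955 to 3201 with a median of 3071 in SHAM libraries. Its spread was small in both groups, and the change of 0.22 with SE 0.04 did not pass (adjusted p = 0.103). It was 0.25 in Treatment replicates 5, 6 and 7 (adjusted p = 0.0576), and it passed without Treatment replicate 1 (adjusted p = 0.0348). Fdft1 passed in 3 of 28 alternatives, with a limma adjusted p of up to 0.296.

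Other genes of the list were less separated. Sqle, squalene epoxidase, averaged 2823 ± 195 in Treatment libraries and 2465 ± 144 in SHAM libraries (0.19, adjusted p = 0.518), and Insig1 3206 ± 171 in Treatment libraries and 2666 ± 240.3 in SHAM libraries (0.27, adjusted p = 0.562). Srebf2, which encodes SREBP2, had a change of 0.03 with SE 0.06. Abca1, an exporter of cholesterol, had 3032 to 3944 normalised counts in Treatment libraries, against 2580 to 3273 in SHAM libraries (0.19, adjusted p = 0.81). Apoe (-0.04) and Cyp46a1 (-0.05), the neuronal hydroxylase that clears brain cholesterol, had changes smaller than their SE of 0.08 and 0.06.

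**Figure D3:**
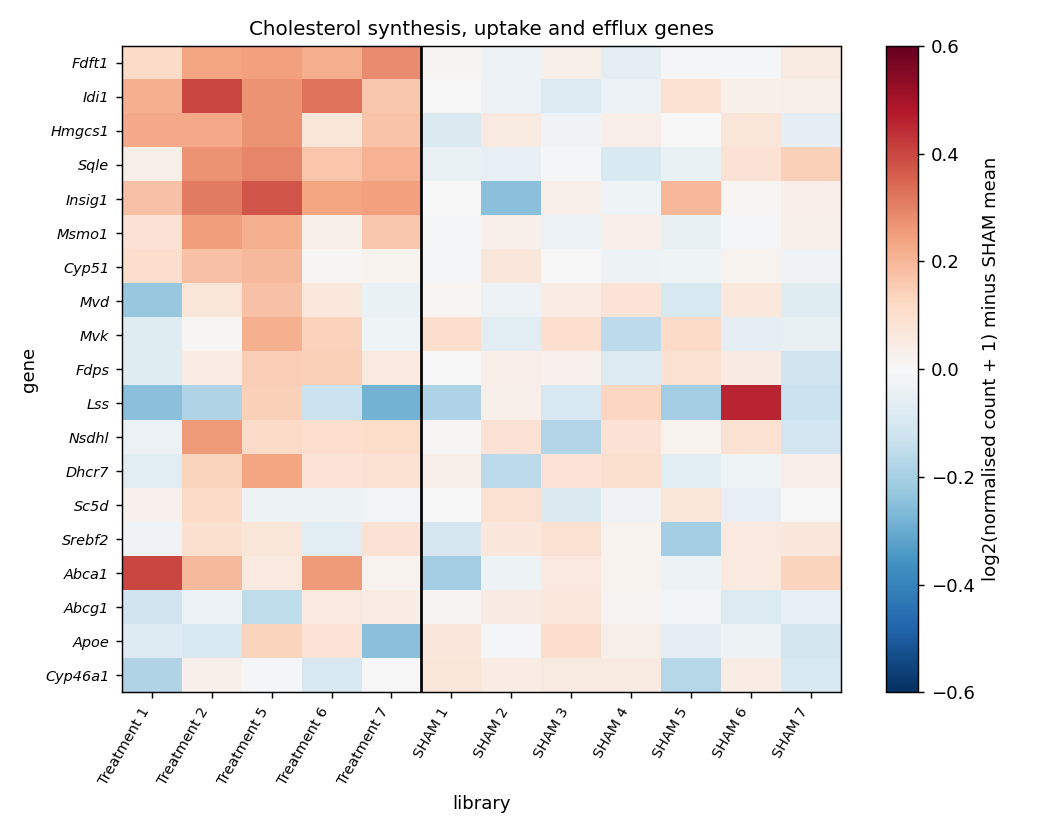
Log2 level of cholesterol-list genes in each Treatment and SHAM library, minus the SHAM mean of the gene, from blue (lower) to red (higher). Part of the tested members is drawn, in a chosen order. The top 7 genes, from Fdft1 to Cyp51, are members that were higher at an unadjusted limma p under 0.05. They are therefore red or near 0 in all Treatment libraries by choice, while Srebf2 and Apoe show no such block.

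Among the lower genes with the smallest p, Slfn4 had the largest difference. Slfn4 belongs to the Schlafen family of growth-regulating, interferon-inducible genes, whose similar members can share reads, so its level is uncertain. It had 580.2, 3005, 178, 238 and 623 normalised counts in Treatment libraries, against 4109 to 22908 with a median of 11590 in SHAM libraries. No Treatment library reached the lowest SHAM library, yet OVX libraries, which had neither ovaries nor estradiol, spread from 159.6 to 14720. The change was -4.32 with SE 0.90 (adjusted p = 0.126). Slfn4 passed in 2 of 28 alternatives, 1 of them the fit of the Treatment and SHAM libraries alone (limma adjusted p = 0.0174).

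The other lower genes differed by small amounts, and none passed. Apcdd1, an inhibitor of Wnt signalling, averaged 981 ± 118 normalised counts in Treatment libraries and 1299 ± 138 in SHAM libraries (-0.41, adjusted p = 0.126). Polm, a DNA polymerase of end joining, had 417, 402, 381, 444 and 387 in Treatment libraries, against 486 to 630.3 with a median of 535 in SHAM libraries (-0.40, adjusted p = 0.135). Polm, Sirt7, a nucleolar deacetylase, and Ano8, a protein of contact sites between endoplasmic reticulum and plasma membrane, lay lower in every Treatment library than in every SHAM library, as did 0.192% of all genes. The change was -0.22 for Sirt7 (adjusted p = 0.231) and -0.17 for Ano8 (adjusted p = 0.311). The change was -0.58 for Zfp488, known in the mouse as a regulator of oligodendrocytes, -0.29 for Fam57b, a gene linked to ceramide synthesis, and -0.28 for Zfp628 (adjusted p from 0.231 to 0.279). Tiparp, an ADP-ribosyltransferase that the aryl hydrocarbon receptor induces, was among the higher genes. It had 429, 397, 455, 423 and 411 in Treatment libraries, against 285 to 323 with a median of 299.9 in SHAM libraries, without overlap (0.49, adjusted p = 0.111). Tiparp passed in 1 of 28 alternatives, the fit of the Treatment and SHAM libraries alone (limma adjusted p = 0.00772).

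Immune genes showed no called change. Of 37 tested interferon-induced genes 33 had a change above 0, where 51.6% of all genes did, with a median of 0.11, and 2 had an unadjusted p under 0.05, Ifit3 (0.33, adjusted p = 0.72) and Ifit2 (0.24, adjusted p = 0.804), both higher, beside 3.29% of all genes. Of 22 tested homeostatic microglia genes 18 had a change above 0, with a median of 0.069, and 4 were higher (among them Gpr34, Ctss and Trem2) and 2 lower (Itgam and Cx3cr1) at an unadjusted p under 0.05, beside 3.29% and 2.8% of all genes. Cx3cr1, the fractalkine receptor of microglia, averaged 630.4 ± 28.2 in Treatment libraries and 742 ± 101 in SHAM libraries (-0.22, adjusted p = 0.72), while Gpr34, a microglial receptor, averaged 575 ± 64.5 in Treatment libraries and 464 ± 102 in SHAM libraries (0.33, adjusted p = 0.678). In bulk tissue, fewer cells of a type and less RNA per cell cannot be told apart. The pan-microglial marker Aif1 (0.04), the lysosomal marker Cd68 (-0.12) and complement C3 (-0.28, adjusted p = 0.831) did not pass. Of 21 complement genes C1s and Serping1, both at 0.39, were higher at an unadjusted p under 0.05, beside 3.29% of all genes.

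RT1-A2, a class I histocompatibility gene whose near-identical relatives can share reads, had 237, 286, 297, 693 and 239.9 normalised counts in Treatment libraries, against 31 to 306 with a median of 45.7 in SHAM libraries. The SHAM value of 306 was that of replicate 5 and the next was 56.4, and the Treatment value of 693 was that of replicate 6. These are the libraries with a high thalamus score, and the change of 2.50 (SE 0.66) did not pass (adjusted p = 0.37). Of 9 class II genes 7 had a change below 0, while 51.6% of all genes had one above 0. The median of the list was -0.31, and it was -0.044 in Treatment replicates 5, 6 and 7. Cd4, counted here among blood cell markers, averaged 166 ± 36.6 in Treatment libraries and 234 ± 62.8 in SHAM libraries (-0.48, adjusted p = 0.738).

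The median change of myelin genes varied with the Treatment libraries used. All 22 tested members had a change below 0, with a median of -0.18, beside 51.6% of all genes above 0, but the median was -0.0063 in Treatment replicates 5, 6 and 7. Mbp, a main protein of compact myelin, had 134296, 146382, 133702, 234242 and 208538 normalised counts in Treatment libraries, against 136485 to 254237 with a median of 200289 in SHAM libraries. Treatment replicates 1, 2 and 5 were low and 6 and 7 within the upper part of the SHAM range, so the groups overlapped. Of the low libraries, replicates 1 and 2 have high LOC257642 and replicate 5 has not. The mean log2 level of the list averaged 12.48 in Prevention libraries, all with high LOC257642, and 12.51 in SHAM libraries. The part of this library difference in the myelin levels was not tested. Sox10, the transcription factor of the lineage, was the 1 member with an unadjusted p under 0.05 (-0.32, SE 0.12, adjusted p = 0.687). Of 13 tested oligodendrocyte precursor genes 7 had a change above 0 and 6 below, with a median of 0.0047 (0.028 in replicates 5, 6 and 7), and 0 were higher and 2 lower at an unadjusted p under 0.05, beside 3.29% and 2.8% of all genes. The 2 lower genes were Enpp6 (-0.38) and Gpr17 (-0.31), both of newly differentiating cells (adjusted p = 0.7 each). Their changes in replicates 5, 6 and 7 were -0.41 and -0.30.

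Astrocyte, vessel, metabolic and neuronal lists held no called change. Slc1a3, the astrocytic glutamate transporter GLAST, averaged 33357 ± 2767 in Treatment libraries and 28917 ± 2614 in SHAM libraries (0.21, adjusted p = 0.634), and Gfap, the astrocytic intermediate filament, 36014 ± 2092 in Treatment libraries and 39914 ± 3805 in SHAM libraries (-0.14, adjusted p = 0.831). The change was 0.16 for Slc2a1, the glucose transporter of the blood-brain barrier, and 0.17 for Mfsd2a, its transporter of docosahexaenoic acid (adjusted p = 0.612 and 0.748). Of 29 fatty acid oxidation genes 22 had a change above 0, where 51.6% of all genes did. At an unadjusted p under 0.05, 0 were lower and 3 were higher, beside 2.8% and 3.29% of all genes. They were Hadhb (0.15), Acadl (0.16) and Etfa (0.12), which act in the mitochondrial β-oxidation of fatty acids (adjusted p from 0.464 to 0.81). Of 65 nuclear respiratory chain genes 0 had an unadjusted p under 0.05. Grin1 (-0.11) and Gabbr2 (-0.18), receptor genes for glutamate and GABA, were lower at an unadjusted p under 0.05 (adjusted p = 0.8 and 0.612). Bdnf had a change of 0.16 with SE 0.12, and Prox1, the marker of dentate granule cells, a change of -0.17 with SE 0.15. Bace1, the β-secretase that cuts the amyloid precursor, had 3054, 2999, 3060, 3124 and 3147 normalised counts in Treatment libraries, against 3204 to 3575 with a median of 3381 in SHAM libraries. The groups did not overlap, though the difference was small (-0.13, SE 0.04, adjusted p = 0.387). Bin1, an Alzheimer risk gene of membrane curvature, had a change of -0.12 (adjusted p = 0.763).

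Genes of estradiol signalling itself showed no called change. None of the 9 tested receptor genes had an unadjusted p under 0.05, and their median change was -0.0016. Esr1 had 99.6, 83.8, 75.1, 137 and 29.5 normalised counts in Treatment libraries, against 57.7 to 104 with a median of 95.2 in SHAM libraries. The Treatment libraries reached both above and below the SHAM range (-0.13, SE 0.33). Esr2 averaged 28.8 ± 10.2 in Treatment libraries and 27.8 ± 9.35 in SHAM libraries, and Gper1 75.1 ± 13.3 in Treatment libraries and 72.7 ± 11.2 in SHAM libraries (SD, n = 5 and 7). The changes of Esr1, Esr2 and Gper1 turned direction in some alternatives, and so had no set direction. Of 23 tested estrogen-responsive genes 1 had an unadjusted p under 0.05, Rara, a retinoic acid receptor (0.17, adjusted p = 0.81). Over all genes 3.29% were higher and 2.8% lower at this unadjusted p. The classical targets Pgr, the progesterone receptor (-0.10, SE 0.12), and Greb1 (0.10, SE 0.12) did not pass, and Igf1 had a change of 0.0011. Sts, which frees steroids from their sulfates, had a change of -0.15 (adjusted p = 0.786).

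**Figure D4:**
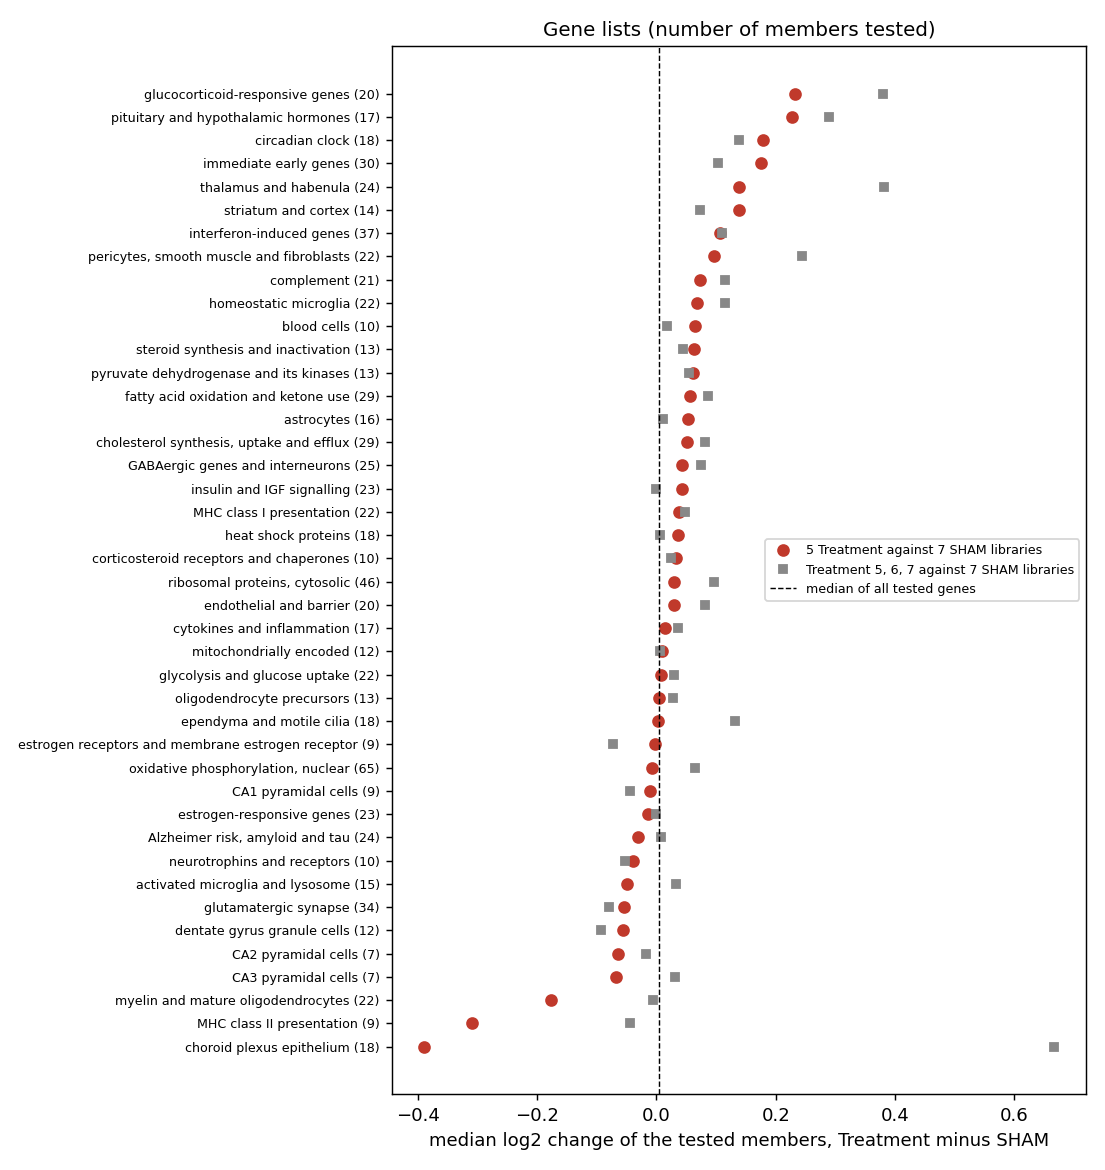
Median log2 change, Treatment minus SHAM, of each gene list, with its number of tested members. Circles use all 5 Treatment libraries, squares replicates 5, 6 and 7, and the dashed line is the median of all tested genes at 0.0037. The glucocorticoid list lies at 0.23 and 0.38, and choroid plexus, at -0.39 and 0.67, changes side between the library sets.

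Markers of neighbouring tissue differed between libraries within both groups. Ttr, the main secretory product of choroid plexus, had 337, 281, 12498, 71606 and 1019 normalised counts in Treatment libraries, against 384 to 136652 with a median of 1068 in SHAM libraries. Both groups held libraries near the low end of this range and libraries far above it (-0.65, SE 1.66, adjusted p = 0.977). With the mean log2 level of the choroid list or of the thalamus list as a covariate, Pdk4 was still the 1 gene called. It was also the 1 gene called when Treatment replicate 6 and SHAM replicate 5 were both left out, an alternative chosen after seeing the data.

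**Figure D5:**
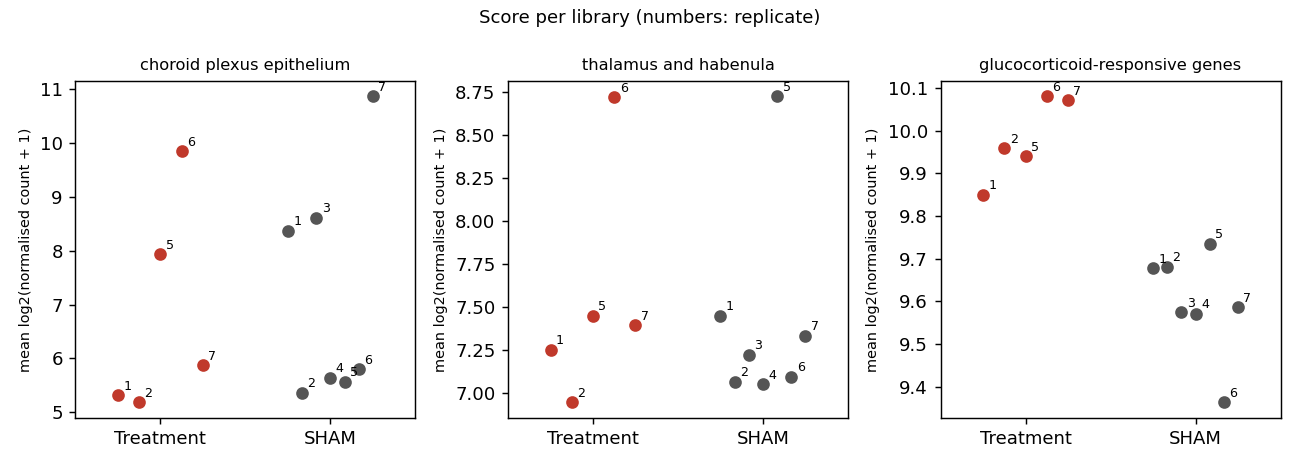
Mean log2 level of 3 gene lists in each Treatment and SHAM library, with replicate numbers beside the points. Choroid and thalamus levels overlap between the groups, with Treatment 6 and SHAM 5 at 8.72 for thalamus, while the glucocorticoid list does not overlap (9.85 to 10.1 in Treatment, 9.36 to 9.74 in SHAM).

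The other groups of the study place the Pdk4 difference. Pdk4 averaged 430.0 ± 129 normalised counts in Treatment, 248 ± 81.4 in Prevention, 178 ± 52.5 in OVX and 129 ± 33.7 in SHAM libraries (SD, n = 5, 5, 7 and 7). The ranges were 294 to 614 in Treatment, 146 to 345 in Prevention, 121 to 273 in OVX and 73.4 to 177 in SHAM libraries, so that Treatment overlapped Prevention but neither OVX nor SHAM. Treatment minus OVX was 1.26 (adjusted p = 0.258), Prevention minus SHAM 0.91 (adjusted p = 0.0799), OVX minus SHAM 0.46 (adjusted p = 0.795) and Treatment minus Prevention 0.81 (adjusted p = 0.587). These comparisons share libraries with one another. The difference from SHAM is therefore not shown to be particular to delayed estradiol. Over all genes limma called 0 in Treatment minus OVX, 0 in OVX minus SHAM and 0 in Treatment minus Prevention, with 1159, 1007 and 868 genes at an unadjusted p under 0.05 (7.19%, 6.25% and 5.38%).

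Prevention minus SHAM had 57 calls (0.354% of genes tested), and some of the genes above were among them. Fdft1 averaged 3592 ± 152 normalised counts in Treatment, 3563 ± 255 in Prevention, 3126 ± 124 in OVX and 3083 ± 84.1 in SHAM libraries. Its Prevention minus SHAM change of 0.21 passed (adjusted p = 0.0272), next to 0.22 for Treatment minus SHAM, which did not. Idi1 (0.32), Insig1 (0.40), Tiparp (0.50) and Sirt7 (-0.27) likewise passed in Prevention minus SHAM, with adjusted p from 0.0246 to 0.0297. Treatment minus Prevention was -0.04 for Idi1, -0.13 for Insig1, -0.01 for Tiparp and 0.05 for Sirt7, none of which passed (adjusted p from 0.952 to 1). All 5 Prevention libraries have high LOC257642 and no SHAM library does, so in Prevention minus SHAM this difference and the treatment cannot be told apart. Sgk1 averaged 7422 ± 1793 in Treatment, 6139 ± 1789 in Prevention, 4120 ± 843 in OVX and 3531 ± 942 in SHAM libraries, and Ddit4 3657 ± 208 in Treatment, 2954 ± 598 in Prevention, 2638 ± 470.0 in OVX and 2369 ± 310.0 in SHAM libraries. The median change of the glucocorticoid list was 0.23 for Treatment minus OVX, 0.034 for OVX minus SHAM and 0.16 for Prevention minus SHAM.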

How the data were processed

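Hippocampal RNA was extracted with TRIzol and purified on PureLink columns with DNase, per the labels' protocols. Per the submitters' processing notes, kallisto 0.43 and DESeq2 (no version named) were used; build, annotation, filters and strand setting, not given in the sources used here, are unknown. The deposited table holds normalised counts of 20318 features in 24 libraries, a signal the authors scaled between libraries; values are not whole, and reads could not be recovered (55.5 to 91.3% of values of 5 to 10 estimated reads lay within 0.1 of whole in the 12 libraries). Read totals were estimated from the value of 1 read. No counting intervals were computed; errors are the spread among libraries. Features sharing identical values numbered 207.

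Values were analysed as log2(normalised count + 1), which understates changes of low genes, using limma 3.58.1 (R 4.3.3). Tested were 16119 genes, those averaging at least 10, 919 of them named only by a LOC or RGD identifier. All 24 libraries entered 1 fit with a mean per group and a mean-variance trend, with two-sided moderated tests and Benjamini-Hochberg adjustment over all genes, threshold 0.05. Samples were grouped by their treatment labels. Lists are described by counts and medians; 802 of their 895 genes were tested and 788 of these matched RefSeq. The comparison, the 43 lists and the naming rule were chosen with earlier results of these data known. The rule took called genes, the 8 higher and 8 lower genes with the smallest p at a mean of at least 50, up to 2 members of each list with an unadjusted p under 0.05, and a set of genes such as Esr1, Pgr and Gfap picked by name. Some genes the rule took are not reported here. Other list members named in the text were chosen after their values were seen. Promoters came from RefSeq, GRCr8. The pipeline was tested on simulated data. Alternatives were pseudocounts of 0.5 and 8, a filter dropped or raised to 100, quantile and upper quartile scaling, the 12 libraries alone, a robust step, weighted libraries, a replicate block, choroid and thalamus scores, the LOC257642 set, and leaving out each library. Figures used Python 3.11.15 and matplotlib 3.10.9.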

Additional observations from a re-analysis of the deposited data

Results flagged for a closer look

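In 11 of 152 sets of values (a gene or score within a group) 1 library stood apart by Dixon's gap criterion, which chance alone meets in about 1 set in 20. Slfn4 had 3005 normalised counts in Treatment replicate 2, next to 623 in the second highest Treatment library, and even this value lay below the lowest SHAM library. RT1-A2 had 693 in Treatment replicate 6 and 306 in SHAM replicate 5. The same libraries had the highest thalamus and habenula level of their group, 8.72 (log2) in Treatment replicate 6 and 8.72 in SHAM replicate 5; its part in RT1-A2 was not tested. Ttr of choroid plexus had 71606 normalised counts in Treatment replicate 6 and 136652 in SHAM replicate 7.

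Zfp628 had 406 in Treatment replicate 1 and Gfap 32368 in Treatment replicate 5, both the lowest of their group. Polm had 630.3 in SHAM replicate 7, the highest of its group, and Slc1a3 had 23362 in SHAM replicate 5, the lowest. Polm, Zfp628, Gfap and Slc1a3 kept their direction in every alternative tried.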

How the results depend on the processing

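The count of called genes was 1 in most alternatives. It was 3 after quantile normalisation, 6 with the Treatment and SHAM libraries alone, 11 with library weights, 2 in the low LOC257642 set with both tissue scores, and 1 to 4 when 1 library was left out. It was 4 without Treatment replicate 1, 3 without SHAM replicate 5, and 2 without SHAM replicate 1 or SHAM replicate 2. Pdk4 was among the called genes in every setting except the fit with the replicate number as a block, which called 0 genes (906 at an unadjusted p under 0.05) and gave Pdk4 a change of 1.72 with a limma adjusted p of 0.0513. The labels do not say whether equal numbers mark samples that belong together, and a shared day or batch was not tested. Deviations of same-numbered Treatment and SHAM libraries correlated at -0.442 to 0.205, and none matched its own number best. Over all settings the change of Pdk4 ran from 1.58 to 1.94, and the median of the glucocorticoid list from 0.22 to 0.38.

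Directions turned only in genes with changes below their SE, none of which was called. Igf1 was at -0.0102 after quantile normalisation, -0.00927 with library weights, -0.0171 with the replicate block, -0.000163 and -0.0043 with the choroid and thalamus scores, -0.0746 in the low set or with the set as a term (equal by construction), -0.0967 in the low set with scores, and from -0.0581 to 0.0612 with 1 library left out. Esr2 was at -0.0166 with weights, -0.0708 in the low set with scores, -0.17 without Treatment replicate 6 and SHAM replicate 5, and from -0.107 to 0.161 with 1 left out. Gper1 was at -0.019 with weights, -0.0173 with the block, -0.0899 without those 2 libraries, and from -0.0469 to 0.124. Ttr was at 1.34 in the low set or with the set as a term, 0.298 in the low set with scores, and from -1.87 to 0.207. Greb1 was at -0.0487 in the low set with scores. Aif1 was at -0.0255 without those 2 libraries and from -0.00973 to 0.0741, and Esr1 from -0.335 to 0.209. The cause was not tested.

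With 5 against 7 libraries and a median SE of 0.087 on the log2 scale, small changes were not detectable as calls, and a missed threshold does not show that levels were equal. The treatment weeks, the surgery and the hormone differ together between the groups. Low genes such as Esr2 rest on few reads.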

Other observations

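Other hormone and region genes gave values outside the comparisons above. Of 17 tested pituitary and hypothalamic hormone genes 12 had a change above 0, Treatment minus SHAM, where 51.6% of all genes did. Their median change was 0.23, and 0 had an unadjusted p under 0.05. Their mean log2 level was 7.74 in Treatment replicate 6, the library with a high thalamus score, 6.41 to 6.61 in the other 4 Treatment libraries and 6.28 to 6.86 in SHAM libraries, so that only this Treatment library lay above the SHAM range. Their summed level ran from 4990 to 9752 normalised counts in Treatment libraries and from 5015 to 6585 in SHAM libraries. Of 46 tested cytosolic ribosomal protein genes 35 had a change above 0, beside 51.6% of all genes, with a median of 0.029 (0.097 in Treatment replicates 5, 6 and 7). Their mean log2 level was 12.15 to 12.2 in these 3 libraries, 11.985 and 11.998 in Treatment replicates 1 and 2, and 11.96 to 12.07 in SHAM libraries. Rps21, whose processed copies can share reads, averaged 1271 ± 68.2 in Treatment libraries and 1096 ± 113 in SHAM libraries (0.22, limma adjusted p = 0.562). Of 22 pericyte, smooth muscle and fibroblast genes 19 had a change above 0, beside 51.6% of all genes, with a median of 0.097 (0.24 in replicates 5, 6 and 7). Of these 22 genes 0 had an unadjusted p under 0.05, beside 3.29% higher and 2.8% lower over all genes. The change was 0.21 for Dnajb1, a heat shock cochaperone (adjusted p = 0.7), 0.16 for Tle4, a marker of deep cortical neurons (adjusted p = 0.659), and 0.13 for the kainate receptor gene Grik2 (adjusted p = 0.81).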
